A study of Mus musculus with 14 samples.

Results

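Expression of *Pou5f1*, which encodes Oct4, was analyzed with 7 other genes known from pluripotent cells in fibroblast-derived hepatic cultures and in liver tissue. The 8 genes, *Pou5f1*, *Nanog*, *Lin28a*, *Lin28b*, *Sall4*, *Klf4*, *Zfp42* and *Tdgf1*, were listed by name, with earlier results of these data known, and all 8 were found among the 28022 genes of the count table. In the study, mouse embryonic fibroblasts were converted into induced hepatic stem cells (iHepSCs) with lentiviral SFFV vectors for murine *Oct4* and *Hnf4a* cDNAs, so *Pou5f1* was itself a conversion factor. RNA-seq libraries were made from 7 conditions with 2 libraries each. Reads mapped to each gene were counted, and 20851489 to 35143325 reads per library were assigned to genes.

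All samples were labelled with the strain C57BL/6J. Fib stands for the fibroblasts, for which the labels give no virus. The 2D-iHepSC libraries came from iHepSCs in flat culture, and the 2D-iHepSCiEC libraries came from iHepSCs grown with induced endothelial cells (iECs). The iECs were made from the human fibroblast line HF1 with a lentivirus for human *ETV2*, so that RNA of both species was present with iECs and human reads could be counted only where they mapped to mouse genes. 3D-iHA are organoids of iHepSCs alone in hydrogel, which the study calls iHLOs although the label speaks of assembloids, and 3D-iHEA are assembloids of iHepSCs and iECs. Adult-Liver and Fetal-Liver are whole tissue without conversion factors, from adult mice and from fetuses. Every culture condition carried both conversion factors, so no library shows iHepSCs without them. The labels do not say whether the 2 libraries of a condition came from separate cultures or animals, and the p-values measure the spread between these libraries, which may be technical.

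Oct4 is a POU-domain transcription factor that, with Sox2 and Nanog, holds the centre of the gene network of embryonic stem cells. Klf4 is a zinc finger factor that serves in reprogramming to pluripotency and also in epithelial differentiation, and Sall4 is a zinc finger repressor of embryonic stem cells and of the early fetal liver. Lin28a and Lin28b are RNA-binding proteins that block the processing of let-7 microRNAs, whereas *Zfp42* (Rex1) and *Tdgf1* (Cripto, a co-receptor of Nodal) are used as markers of naive and early embryonic cells.

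Promoter sequences of 2 members are shown because the promoter of *Nanog* is a textbook target of Oct4 and Sox2, and that of *Zfp42* is a textbook target of Oct4. They are the 250 bases before the RefSeq start site, 5′ to 3′ on the strand of the gene in GRCm38.p6. For *Nanog*, at chr6:122707239-122707488 on the plus strand, the capitals mark TTTGCAT, the core of the Oct octamer, and ACAATG, the reverse of the Sox motif CATTGT. For *Zfp42*, at chr8:43307010-43307259 on the minus strand, they mark the full octamer ATTTGCAT, 2 copies of CCGCCC (the reverse of the GC box GGGCGG) and CACACCC (the reverse of the Klf motif GGGTGTG), which overlaps the second GC box.
Nanog: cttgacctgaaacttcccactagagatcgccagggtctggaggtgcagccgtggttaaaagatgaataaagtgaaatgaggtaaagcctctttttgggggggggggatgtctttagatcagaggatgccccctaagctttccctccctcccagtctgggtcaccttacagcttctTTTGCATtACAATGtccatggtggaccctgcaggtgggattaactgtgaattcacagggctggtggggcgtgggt
Zfp42: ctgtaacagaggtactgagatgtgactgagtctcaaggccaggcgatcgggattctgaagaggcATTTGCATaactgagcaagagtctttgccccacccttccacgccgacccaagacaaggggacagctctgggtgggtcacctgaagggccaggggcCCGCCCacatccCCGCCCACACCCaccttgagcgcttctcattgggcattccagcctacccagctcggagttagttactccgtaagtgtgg

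The motifs were searched on both strands in windows from 250 bases before to 50 bases after the start sites of 27025 genes. TTTGCAT, which is also part of every full octamer, was found for 5.24% of genes, ATTTGCAT for 1.97%, CATTGT for 14.3%, GGGTGTG for 9.05% and GGGCGG for 38.2%. Of the 7 members with a window in the table (all but *Sall4*), TTTGCAT was found in *Nanog* and *Zfp42*, and CATTGT was found in *Lin28a*, *Nanog* and *Pou5f1*. A match describes the letters of the window and no binding was measured.

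**Figure D1:**
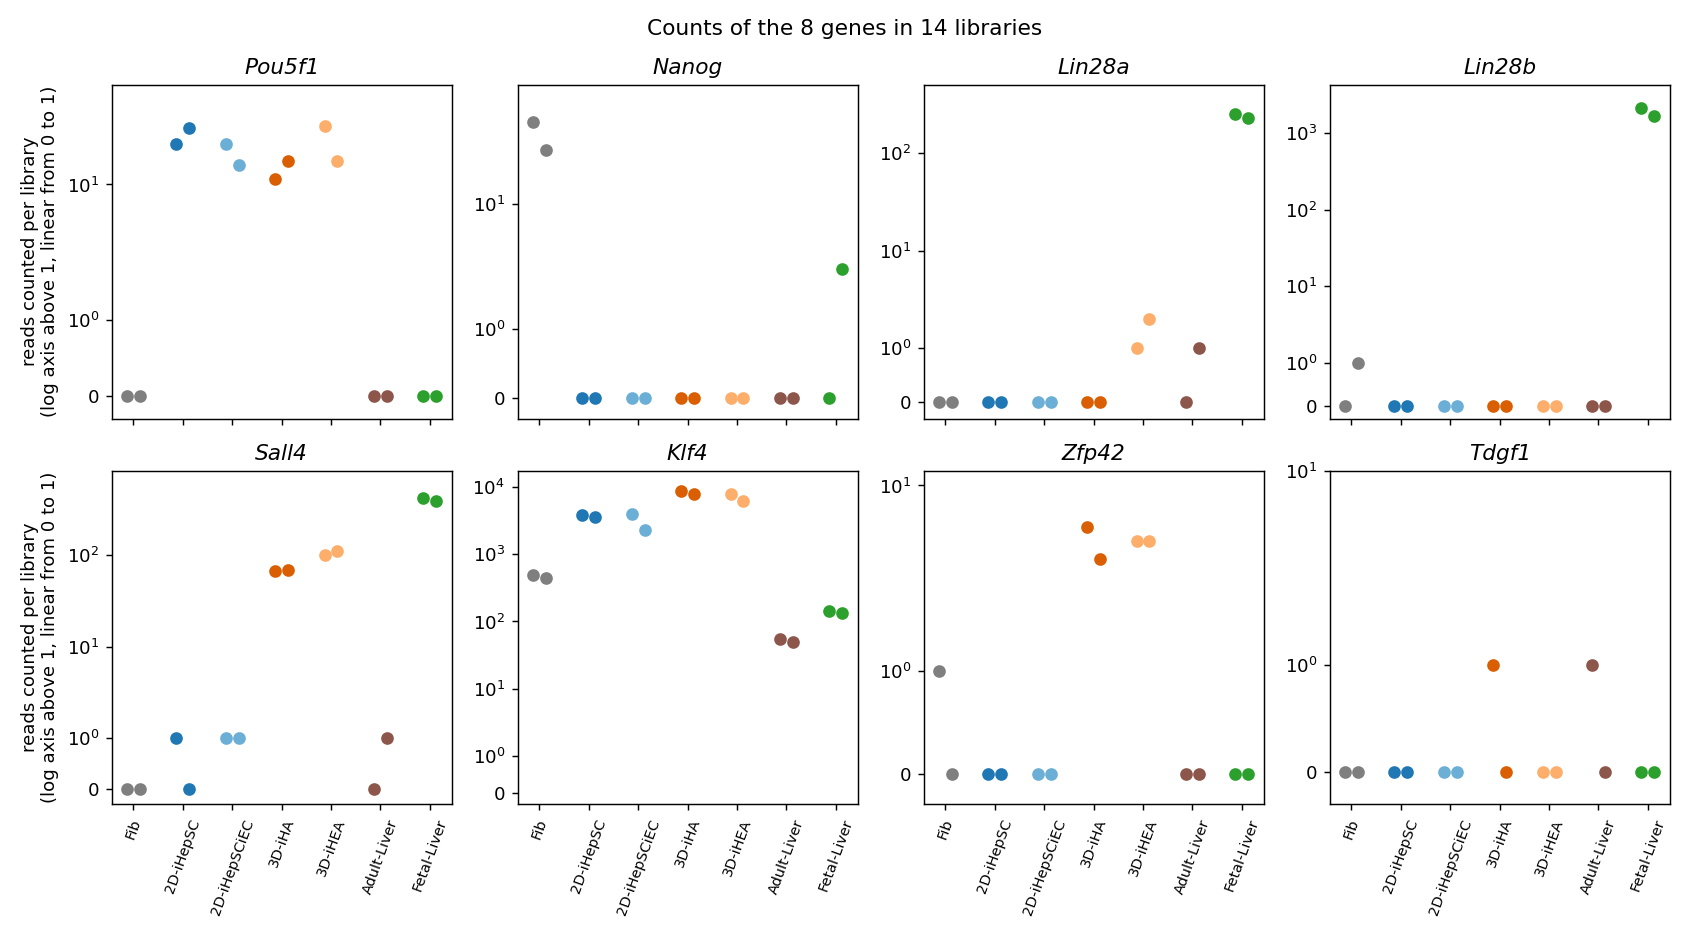
Reads counted for each of the 8 genes (y axis, log scale above 1 and linear from 0 to 1) in the 14 libraries, grouped by condition on the x axis, with 1 point per library. Pou5f1 has counts only in the 8 culture libraries, Nanog mainly in Fib, and Lin28a and Lin28b almost only in Fetal-Liver, whereas Klf4 has counts everywhere.

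Levels are given as counts and as CPM, the usual scaling of counts to a common library total, here after TMM, a method that equalizes the bulk of the genes. Mean levels are followed by the SD of the 2 libraries. Where all libraries of a group had 0 counts, the upper limit is the level that 3 counts over the whole group would give, which covers counting error only. Of the 8 members, 6 passed the filter for low counts, and *Zfp42* and *Tdgf1* did not. *Pou5f1* passed only through the cultures, *Nanog* only through Fib, and *Lin28a* and *Lin28b* only through Fetal-Liver, so these genes had to differ between conditions once they were tested. Comparisons were made with edgeR's quasi-likelihood test with Benjamini-Hochberg adjustment over all 16987 tested genes, and a gene was called at an adjusted p under 0.05.

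*Pou5f1* (chr17:35506018-35510772, plus strand, GRCm38) was counted in all 8 culture libraries and in none of the 6 others. The 2D-iHepSC libraries had 20 and 26 counts, the 2D-iHepSCiEC libraries had 20 and 14, the 3D-iHA libraries had 11 and 15, and the 3D-iHEA libraries had 27 and 15. Fib, Adult-Liver and Fetal-Liver had 0 counts in every library. Over the 8 cultures the level was 0.574 ± 0.164 CPM (SD, n = 8), whereas 0 counts in the 6 other libraries allow up to 0.0183 CPM.

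In the comparison of 2D-iHepSC with Fib, which addresses what conversion changed, *Pou5f1* was called (adjusted p = 8.67e-06, edgeR) and was at least 15.4-fold higher. Here 13082 of 16987 genes were called, that is 77.0%, so a call alone says little in this comparison. *Pou5f1* also passed the filter only through the cultures, so its p-value adds no support. Counts on a gene do not separate the viral cDNA from the cell's own *Pou5f1*, and these sources cannot be told apart. The antisense gene *Gm19553* overlaps *Pou5f1* in the annotation and is not a row of the table, and the strand setting of the counting is not given in the sources used here.

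The gene of the other murine cDNA was counted far more often. *Hnf4a*, a nuclear receptor that defines hepatocytes, had 5 and 2 counts in Fib and 4117 to 7670 in the cultures, although both cDNAs came from the same vector design. Per kilobase of exon, *Hnf4a* had 37.9 ± 4.09 CPM in the cultures (SD, n = 8) and *Pou5f1* had 0.255 ± 0.0731. Within each culture library *Hnf4a* was 102 to 228 times *Pou5f1* on this scale, with a median of 158. *Hnf4a* also has a strong level in untreated tissue, with 17574 and 18806 counts in Adult-Liver. For its reads in the cultures, viral cDNA and the cell's own gene cannot be told apart either.

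*Pou5f1* did not differ between 3D and 2D cultures beyond the spread of the libraries. The levels were 0.534 ± 0.203 CPM in 3D and 0.614 ± 0.133 CPM in 2D (SD, n = 4 each), and the ranges overlapped. The log2 fold change was -0.22 (SE 0.29, adjusted p = 0.55, edgeR). From the summed counts, 68 in 3D and 80 in 2D, the ratio was 0.879 with an exact 95% interval of 0.626 to 1.23 for counting error only, so a fall by more than that bound was not found at this depth. Between the assembloids and the organoids, 3D-iHEA had 0.671 ± 0.199 CPM and 3D-iHA 0.397 ± 0.0921 CPM (SD, n = 2 each). Both 3D-iHEA libraries were above both 3D-iHA libraries on this scale, although the lower 3D-iHEA library and the higher 3D-iHA library had 15 counts each. Summed counts, 42 against 26, gave a ratio of 1.72 with an exact counting interval of 1.03 to 2.93, which does not include the spread between libraries. In the test over libraries the difference did not pass (log2 fold change 0.77, SE 0.42, adjusted p = 0.65, edgeR).

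The genes on either side of *Pou5f1* did not share its pattern. Of the 3 nearest table genes before it, the class I histocompatibility genes *H2-Q6*, *H2-Q7* and *H2-Q10* had 0 to 4 counts in the cultures and 593 to 56816 in the livers. Of the 3 after it, *Tcf19* and *Cchcr1* had counts in every library, 1167 and 1038 in Fib for *Tcf19*, and *Psors1c2* had 1 to 15.

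Among all tested genes, the 5 with the most similar profile over the 14 libraries were *Olfr784* (Pearson r = 0.984 of log2 CPM), *Mal* (r = 0.983), *Mtm1* (r = 0.982), *Krt8-ps* (r = 0.982) and *Gde1* (r = 0.981). *Olfr784* had 7 to 16 counts in the cultures and 0 elsewhere, and *Mal*, a proteolipid of epithelial cells, had 4237 to 7686 in the cultures and 2 to 32 elsewhere. These correlations describe a split between cultures and other libraries that many genes share, and the libraries of a condition are not independent points.

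**Figure D2:**
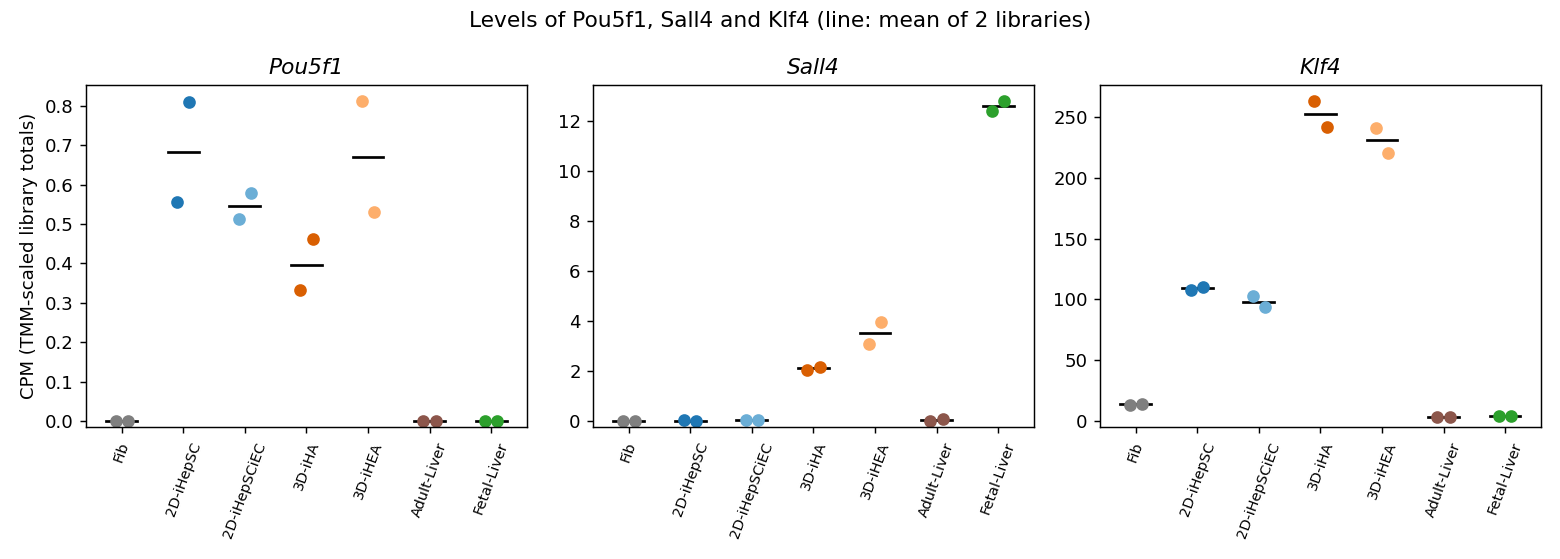
Level of Pou5f1, Sall4 and Klf4 in CPM with TMM-scaled totals (y axis, linear, with its own scale in each panel) by condition (x axis), with 1 point per library and a line at the mean of 2 libraries. Pou5f1 reaches at most 0.812 CPM, Sall4 rises from near 0 in 2D to 2.05 to 3.96 CPM in 3D, and Klf4 is highest in 3D.

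*Nanog* (chr6:122707489-122714633, plus strand) was counted in the fibroblasts and not in the converted cells. Fib had 45 and 27 counts, all 8 culture libraries had 0, Adult-Liver had 0, and Fetal-Liver had 0 and 3. The fibroblast level was 1.04 ± 0.244 CPM (SD, n = 2), and the 0 counts over the 8 cultures allow up to 0.0116 CPM. *Nanog* was at least 23.8-fold lower in 2D-iHepSC than in Fib (adjusted p = 2.45e-05, edgeR), but the Wald test of DESeq2 did not call it (adjusted p = 0.21). It passed the filter only through Fib, so the edgeR p-value adds no support. *Nanog*, whose promoter carries the adjoining Oct and Sox letters shown above, thus had no counts in any library with *Pou5f1* counts.

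Counts of *Nanog* in fibroblasts were few, and where these reads came from was not tested. *Gdf3* and *Dppa3*, the pluripotency genes next to *Nanog* on chromosome 6, had at most 1 count in Fib, and the annotated pseudogenes *Nanog-ps1* and *Nanog-ps2* had 0 in all libraries. The 3 tested genes with the most similar profile were *Dlx6os1* (r = 0.998 of log2 CPM over 14 libraries), *A430027H14Rik* (r = 0.997) and *Ptgs2os* (r = 0.996), with 18 to 45 counts in Fib and at most 3 elsewhere. Genes counted almost only in Fib correlate highly for that reason alone.

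*Klf4* (chr4:55527143-55532466, minus strand) rose with conversion and rose again in 3D culture, and it was the member with the highest level. Fib had 497 and 440 counts, 2D-iHepSC had 3884 and 3554, and 2D-iHepSCiEC had 4006 and 2264. The 3D-iHA libraries had 8726 and 7840 counts and the 3D-iHEA libraries had 8004 and 6238. Adult-Liver had 55 and 50 counts, and Fetal-Liver had 141 and 135.

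On the CPM scale, the order of *Klf4* was 3D-iHA with 252 ± 15.3, 3D-iHEA with 231 ± 14.4, 2D-iHepSC with 109 ± 1.79, 2D-iHepSCiEC with 98.0 ± 6.33, Fib with 13.7 ± 0.511, Fetal-Liver with 4.27 ± 0.158 and Adult-Liver with 3.47 ± 0.338 (SD, n = 2 each). From Fib to 2D-iHepSC the log2 fold change was 3.00 (SE 0.076, adjusted p = 3.16e-16, edgeR), a 7.98-fold rise. From 2D to 3D it was 1.22 (SE 0.046, adjusted p = 1.23e-13), a 2.33-fold rise with all 4 libraries in 3D above all 4 in 2D, in a comparison that called 65.9% of genes. The neighbours in that order within 2D, within 3D and between the livers were not called as different. Fetal against adult liver gave a log2 fold change of 0.30 (SE 0.16, adjusted p = 0.094). With raw library totals in place of TMM the livers stood farther apart, at 5.12 CPM in Fetal-Liver and 1.52 in Adult-Liver.

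The *Klf4* level of the cultures exceeded both livers. 2D-iHepSC was 25.6-fold above Fetal-Liver (log2 fold change 4.68, SE 0.091, adjusted p = 9.93e-18, edgeR), in a comparison that called 83.2% of genes. The 3 tested genes with the most similar profile were *Vldlr*, a lipoprotein receptor (r = 0.997 of log2 CPM over 14 libraries), *Ctnnb1*, which encodes beta-catenin (r = 0.996), and *Mycbpap* (r = 0.995).

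*Sall4* (chr2:168748332-168767943, minus strand) was nearly absent from 2D cultures and present in every 3D library. Fib had 0 counts in both libraries, 2D-iHepSC had 1 and 0, and 2D-iHepSCiEC had 1 and 1. The 3D-iHA libraries had 68 and 70 counts, the 3D-iHEA libraries had 102 and 112, Fetal-Liver had 420 and 394, and Adult-Liver had 0 and 1. All 4 libraries in 3D were above all 4 in 2D, in a comparison that called 65.9% of all tested genes. The level in 3D was 2.81 ± 0.892 CPM (SD, n = 4).

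Summed over the libraries, 352 counts in 3D stood against 3 in 2D, a ratio of 121 with an exact 95% counting interval of 41.2 to 591. The gene was called (adjusted p = 2.88e-11, edgeR), beside 65.9% of all tested genes. Relative to Fetal-Liver, which had 12.6 ± 0.283 CPM (SD, n = 2), the 3D level was 0.220 times as high by summed counts, with a counting interval of 0.194 to 0.250. *Sall4* was counted more in assembloids than in organoids, with 3.51 ± 0.629 CPM in 3D-iHEA and 2.10 ± 0.0744 in 3D-iHA (SD, n = 2 each). This difference missed the threshold (log2 fold change 0.73, SE 0.22, adjusted p = 0.14, edgeR) and passed it when no filter was applied (adjusted p = 0.040). *Gm14261* overlaps *Sall4* on the other strand and is not a row of the table.

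The relatives of *Sall4* were distributed differently. *Sall1*, a regulator of kidney and nephron progenitors, had 0 counts in Fib and 985 to 1844 in the cultures, and was at least 1037-fold higher in 2D-iHepSC than in Fib. *Sall2* fell, from 51.4 ± 0.260 CPM in Fib to 0.260 ± 0.104 in 2D-iHepSC (SD, n = 2 each, log2 fold change -7.58, SE 0.24, adjusted p = 4.74e-15, edgeR). *Sall3* did not pass the filter, with at most 14 counts. Of the 3 tested family members *Sall4* alone was called between 3D and 2D, beside 65.9% of all tested genes, and *Sall1* had a log2 fold change of -0.08 (SE 0.059, adjusted p = 0.22). The genes most similar to *Sall4* in profile were *Acss1* (r = 0.984 of log2 CPM over 14 libraries), *Myl1* (r = 0.982) and *Cited4* (r = 0.980).

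*Zfp42* (chr8:43295063-43306980, minus strand) was detected at a very low level in 3D cultures. The 3D-iHA libraries had 6 and 4 counts and the 3D-iHEA libraries had 5 and 5, whereas all 4 libraries in 2D and both livers had 0 and Fib had 1 and 0. In 3D the level was 0.158 ± 0.0267 CPM (SD, n = 4), at least 6.89-fold above 2D.

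*Tdgf1* (chr9:110939603-110946158, minus strand) was not detectable at this depth in most libraries. It had 1 count in 1 of the 3D-iHA libraries, 1 count in 1 of the Adult-Liver libraries and 0 in the other 12. The pseudogene *Tdgf1-ps2* had 4 counts in all.

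*Lin28a* (chr4:134003330-134018841, minus strand) and *Lin28b* (chr10:45376620-45486395, minus strand) marked the fetal liver and stayed at the floor in the cultures. *Lin28b* had 2107 and 1658 counts in Fetal-Liver, 0 and 1 in Fib, and 0 in all 8 cultures and in Adult-Liver. *Lin28a* had 250 and 228 counts in Fetal-Liver, 1 and 2 in 3D-iHEA, 0 and 1 in Adult-Liver and 0 in the other 8 libraries. Fetal-Liver thus stood apart from every other condition for both genes.

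*Lin28b* had 58.0 ± 5.89 CPM in Fetal-Liver (SD, n = 2) and was at least 588-fold higher there than in Adult-Liver (adjusted p = 6.16e-12, edgeR), in a comparison that called 80.4% of genes. *Lin28a* had 7.39 ± 0.0188 CPM (SD, n = 2) and exceeded Adult-Liver by a ratio of 224 with an exact counting interval of 40.0 to 8864 (adjusted p = 1.89e-08, edgeR). *Lin28a* and *Lin28b* passed the filter only through Fetal-Liver, so their p-values add no support. *Sall4* exceeded Adult-Liver by a ratio of 381, with an interval of 68.3 to 15082 (adjusted p = 2.54e-11, edgeR). Against 2D-iHepSC, Fetal-Liver was at least 168-fold higher in *Lin28a* and at least 1321-fold higher in *Lin28b*. Per kilobase of exon, Fetal-Liver had 6.40 CPM of *Lin28b*, 2.27 of *Sall4*, 1.85 of *Lin28a* and 1.40 of *Klf4*.

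Fetal liver is also a blood-forming organ, and markers of several cell types also differed between the livers. All 6 erythroid markers of the list were higher in fetal than in adult liver, with a summed level of 15063 to 15436 CPM in Fetal-Liver, 194 to 223 in Adult-Liver and at most 4.47 in any Fib or culture library. Of the 8 fibroblast markers 7 were higher in fetal than in adult liver, with sums of 1615 to 2737 and 177 to 178 CPM, and all 7 hepatocyte markers were lower, with sums of 11228 to 14238 and 546693 to 585547 CPM, beside 80.4% of all tested genes called. Of the 6 leukocyte markers 1 was higher and 5 were lower in fetal than in adult liver, with sums of 216 to 263 and 160 to 170 CPM. The part of all these markers in the fetal levels of the members and of the let-7 axis was not tested. The 3 tested genes most like *Lin28b* in profile were *Hbb-bh1* (r = 0.999 of log2 CPM over 14 libraries), *Cldn13* (r = 0.998) and *Hbb-y* (r = 0.998), where *Hbb-bh1* and *Hbb-y* are embryonic globins. Those most like *Lin28a* were *Tspan32* (r = 0.993), *Gata1*, the erythroid transcription factor (r = 0.992), and *AU015836* (r = 0.992). Which cells of the fetal liver carry *Lin28a*, *Lin28b* and *Sall4* was not tested. In bulk samples, more cells of a type and more RNA per cell cannot be told apart.

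Let-7 microRNAs pair with target RNAs through their seed, and their sequences are shown here because the genes of this axis moved in opposite directions between conditions. In mature let-7a of RefSeq (GRCm38.p6) the capitals mark the seed, bases 2 to 8. Of the 11 mature let-7 and miR-98 sequences in the table, 10 carry this seed. The seed match CTACCTC, in capitals, is shown in target sites of 26 bases in the 3′ UTRs of 4 genes, read from GENCODE M21 transcripts on the strand of the gene in GRCm38, all on the minus strand: *Lin28b* at chr10:45381019-45381044, *Lin28a* at chr4:134005186-134005211, *Hmga2* at chr10:120364221-120364246 and *Trim71* at chr9:114512469-114512494.
let-7a-5p: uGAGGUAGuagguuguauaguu
Lin28b: acccgggcgggaagtCTACCTCatgc
Lin28a: gcacagcctgttgaaCTACCTCattt
Hmga2: gccgacattcaatttCTACCTCagca
Trim71: aacattgcctaagtcCTACCTCagct

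CTACCTC was found in the 3′ UTR of 7.99% of 20653 coding genes, whose 3′ UTRs had a median of 797 bases. Of the members, *Lin28b* held 4 copies in 4445 bases, *Lin28a* held 2 in 2775 bases and *Sall4* held 1 in 1697 bases, and the other 5 held none. *Hmga2*, *Igf2bp1* and *Trim71* held 4 copies each. Longer UTRs have more room for a match, and neither let-7 nor its binding was measured here.

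The list of the Lin28 and let-7 axis holds 15 further genes, with known let-7 targets, uridyltransferases and parts of the microRNA machinery, and all 15 were tested. Between fetal and adult liver, where 80.4% of all tested genes were called, 14 were higher and 1 was lower, with a median log2 fold change of 3.61 beside 0.17 over all tested genes. *Igf2bp1*, an RNA-binding protein of fetal tissue, exceeded Adult-Liver by a ratio of 3010 with a counting interval of 540 to 118918. *Igf2bp3* had a log2 fold change of 8.21 (SE 0.24, adjusted p = 1.46e-15, edgeR), *Hmga2* had 7.95 (SE 0.18, adjusted p = 3.56e-17), and *Trim71* had 7.07 (SE 0.40, adjusted p = 2.07e-11).

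In 2D-iHepSC, where *Lin28a* and *Lin28b* had no counts, most genes of the axis were below the fetal liver. Of the 15 genes, 4 were higher and 10 lower in 2D-iHepSC than in Fetal-Liver, where 83.2% of all tested genes were called, with a median log2 fold change of -0.91 beside -0.11 over all tested genes. *Trim71* (-8.18, SE 0.38, adjusted p = 1.19e-12, edgeR) and *Mycn* (-7.28, SE 0.39, adjusted p = 7.54e-12) were among the lower genes, and *Hmga2* (2.80, SE 0.075, adjusted p = 5.45e-16) was among the higher ones. *Hmga2*, a chromatin protein of growing embryonic tissue, had 1030 and 902 counts in Fib, 14028 to 22252 in 2D, 3648 to 4814 in 3D, 7 and 3 in Adult-Liver, and 2659 and 2674 in Fetal-Liver. The levels were 575 ± 6.94 CPM in 2D and 137 ± 7.01 in 3D (SD, n = 4 each), against 82.6 ± 5.92 in Fetal-Liver and 28.2 ± 0.835 in Fib (SD, n = 2 each). From Fib to 2D-iHepSC, 7 of the 15 genes were higher and 7 were lower, where 77.0% of all tested genes were called. The largest changes were those of *Hmga1* (log2 fold change 4.54, SE 0.11, adjusted p = 2.25e-16, edgeR), *Hmga2* (4.35, SE 0.082, adjusted p = 6.08e-18), *Trim71* (-3.08, SE 0.65, adjusted p = 0.00033) and *Myc* (2.45, SE 0.074, adjusted p = 2.81e-15).

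From 2D to 3D, where 65.9% of all tested genes were called, 4 of the 15 were higher and 10 were lower, with a median log2 fold change of -0.29 beside -0.01 over all tested genes. *Hmga1* (-2.14, SE 0.066, adjusted p = 8.36e-15, edgeR) and *Hmga2* (-2.07, SE 0.051, adjusted p = 4.44e-16) fell, as did *Igf2bp1*, *Igf2bp2* and *Igf2bp3*. *Trim71*, a ubiquitin ligase and let-7 target, rose from 0.0637 ± 0.0526 to 1.05 ± 0.240 CPM (SD, n = 4 each, log2 fold change 3.86, SE 0.39, adjusted p = 1.06e-07), and *Mycn* rose by a log2 fold change of 2.76 (SE 0.40, adjusted p = 9.39e-06). Among the genes with seed matches, *Sall4*, *Trim71* and *Arid3a* were thus higher in 3D, and *Hmga2* and the *Igf2bp* genes were lower.

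**Figure D3:**
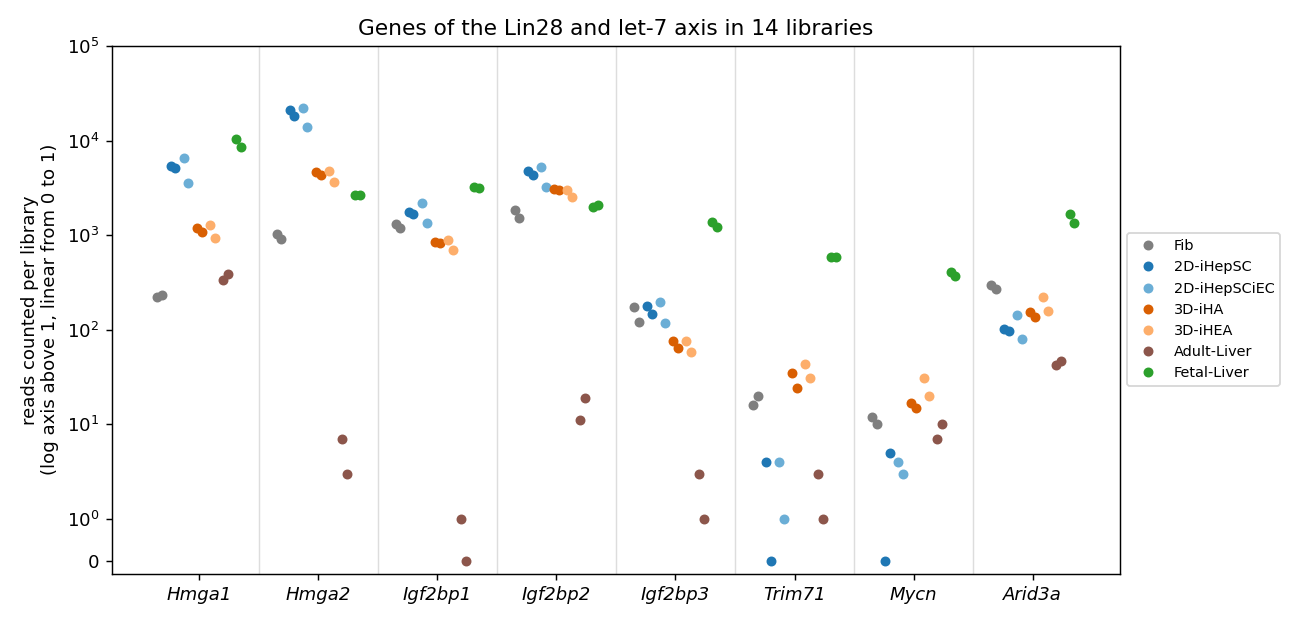
Reads counted (y axis, log scale above 1 and linear from 0 to 1) for 8 genes of the Lin28 and let-7 axis (x axis), with 1 point per library and the color giving the condition. Hmga1, Hmga2 and Igf2bp1 are lower in 3D than in 2D, Trim71 and Mycn are higher in 3D, and Adult-Liver is lowest for Hmga2 and the Igf2bp genes.

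Of a further list of 30 genes of the pluripotency network, 16 passed the filter. In the cultures, 15 of the 30 had at most 3 counts in every library, among them *Sox2*, *Esrrb*, *Utf1*, *Fgf4* and *Dppa5a*, 8 of the 30 had 0 in all of them, and only 3, *Tfcp2l1*, *Klf5* and *Tbx3*, had more than 100 counts in each culture library. *Sox2*, the usual partner of Oct4, had 10 and 19 counts in Fib, 67 and 44 in Fetal-Liver and 0 in all cultures. With conversion, 5 of the 16 genes were higher and 6 were lower in 2D-iHepSC than in Fib, beside 77.0% called over all tested genes (median log2 fold change 0.00059, beside 0.058 over all tested genes).

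*Tfcp2l1*, a factor of naive stem cells and of kidney and other epithelia, rose from 24 and 31 counts in Fib to 4546 and 3834 in 2D-iHepSC (log2 fold change 7.25, SE 0.14, adjusted p = 8.71e-18). Among the genes that fell, *Tet1*, which oxidizes methylated DNA, went from 18.0 ± 0.367 to 0.118 ± 0.00932 CPM (SD, n = 2 each, log2 fold change -7.21, SE 0.25, adjusted p = 2.24e-14), and *Fgf5*, a growth factor of the epiblast, was at least 28.2-fold lower (adjusted p = 5.32e-06).

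In 3D, 6 of the 16 were higher than in 2D and 2 were lower, beside 65.9% over all tested genes (median log2 fold change 0.73, beside -0.01 over all tested genes). *Fbxo15*, a known target of Oct4 and Sox2, rose from 1 to 7 counts in 2D to 181 to 296 in 3D (log2 fold change 5.57, SE 0.22, adjusted p = 2.04e-13, edgeR). *Trim71* followed, and *Klf2* rose from 35 to 53 counts to 319 to 416 (3.20, SE 0.11, adjusted p = 3.13e-14). *Tfcp2l1* rose further, from 116 ± 8.76 to 578 ± 49.9 CPM (SD, n = 4 each, 2.32, SE 0.057, adjusted p = 4.62e-16). The lower genes were *Lefty1*, a Nodal inhibitor (-1.20, SE 0.14, adjusted p = 4.59e-07), and *Klf5* (-0.12, SE 0.039, adjusted p = 0.014).

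**Figure D4:**
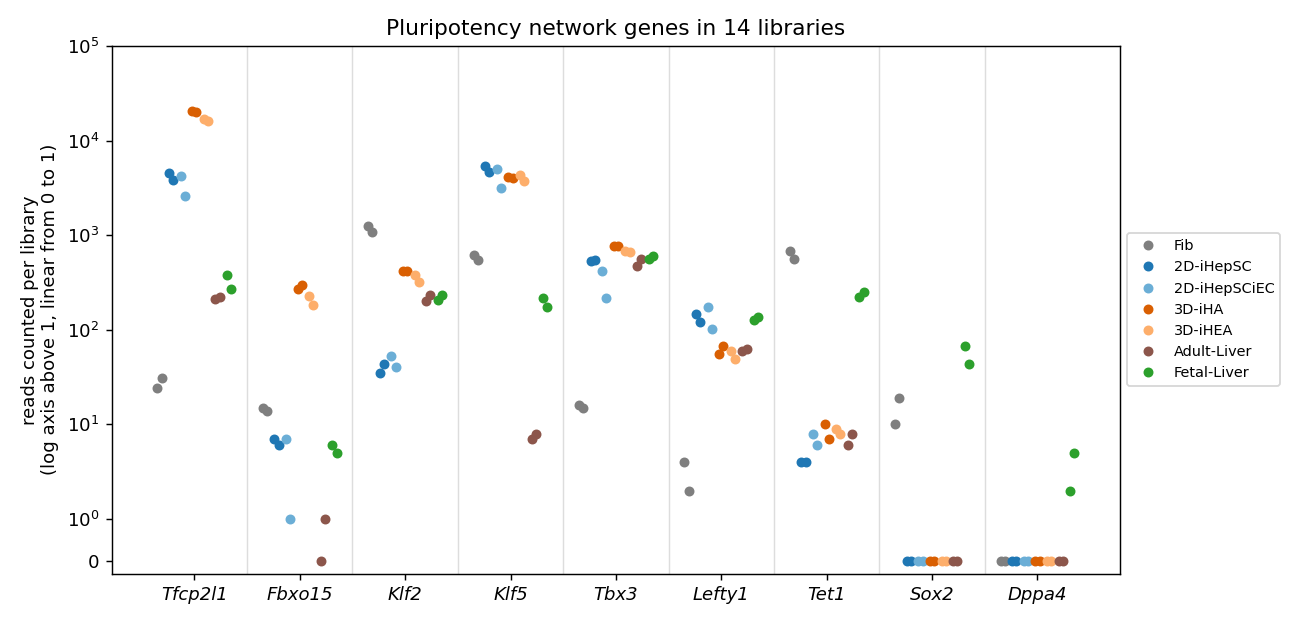
Reads counted (y axis, log scale above 1 and linear from 0 to 1) for 9 genes of the pluripotency network (x axis), with 1 point per library and the color giving the condition. Tfcp2l1, Klf5 and Tbx3 have over 100 counts in each culture library, Fbxo15 rises in 3D, and Sox2 has none in the cultures.

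Other members of the Klf and Oct families were compared for the same conditions. Of the 17 Klf genes 16 were tested, and 9 were higher and 4 lower in 2D-iHepSC than in Fib, near the 77.0% called over all genes. *Klf5*, an epithelial and stem cell factor, rose by a log2 fold change of 3.13 (SE 0.064, adjusted p = 1.86e-17, edgeR), and *Klf2* (-4.90, SE 0.14, adjusted p = 2.02e-15) and *Klf12* (-4.84, SE 0.17, adjusted p = 3.76e-14) fell. From 2D to 3D, 10 Klf genes were higher and 5 lower, beside 65.9% called over all genes, with *Klf15* among the higher ones (2.73, SE 0.088, adjusted p = 1.56e-14). Of the 9 genes of the Oct family 4 were tested, and only *Pou2f1*, the ubiquitous Oct1, had over 100 counts in all libraries. *Pou2f1* was 1.49-fold higher in 2D-iHepSC than in Fib (adjusted p = 1.50e-05) and 0.678 times as high in 3D as in 2D (adjusted p = 4.50e-07).

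Of 10 other factors used in reprogramming, 3 were higher and 5 lower in 2D-iHepSC than in Fib, near the 77.0% called over all genes. *Foxa2*, a pioneer factor of endoderm, rose from 7 and 9 counts to 2738 and 2481, and *Foxa1* fell from 2075 and 1858 to 3 and 4. *Sox2* was at least 9.61-fold lower. *Foxa3* was at least 1.99-fold lower, but near the floor, with 2 and 4 counts in Fib and 0 in 2D-iHepSC. Of 6 fetal hepatic genes, 1 (*Afp*) was higher and 4 were lower in 2D-iHepSC than in Fib, beside the same 77.0%. Among the lower ones, *H19* had 3385 CPM and *Dlk1* 97.2 CPM in Fib. All 6 were higher in fetal than in adult liver, beside 80.4% called over all genes. They were also all lower in 2D-iHepSC than in Fetal-Liver, beside 83.2%. Of 8 germ cell genes, *Ddx4* alone passed the filter, with 0 to 6 counts in the cultures, and it was not called between 2D-iHepSC and Fib or between 3D and 2D.

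Addition of iECs was compared in 2D, in 3D and as the difference between both. No member was called between 2D-iHepSCiEC and 2D-iHepSC, where 4.18% of genes were called, and *Klf4* alone had an unadjusted p under 0.05 (log2 fold change -0.16, SE 0.065, adjusted p = 0.23, edgeR). None was called between 3D-iHEA and 3D-iHA, where 1.35% of genes were called, and *Sall4* alone had an unadjusted p under 0.05. None was called for the difference of the change from 2D to 3D with and without iECs, where 1.48% of genes were called and no member had an unadjusted p under 0.05. DESeq2 called no member in any of these comparisons, although it gave no adjusted p for *Pou5f1* and *Nanog* in any of them. Only *Pou5f1*, *Sall4* and *Klf4* had more than 5 counts in total on each side of the 3D comparison and passed the filter. The other tested members had at most 3 counts on either side.

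The labels were checked against marker lists. Cultures kept little of the fibroblast markers, with summed levels of 3.39 to 13.6 CPM for 8 genes against 25516 to 26904 in Fib. The 7 hepatocyte markers summed to 638 to 1078 CPM in the cultures and 546693 to 585547 in Adult-Liver. The cultures had 2 to 210 counts of *Alb*, at most 3 of *Serpina1a* and at most 7 of *Cyp3a11*, but 8622 to 22874 of *Apob* and 5697 to 12149 of *Apoa1*. The 5 cholangiocyte markers summed to 1064 to 1486 CPM in the cultures, 229 to 231 in Adult-Liver and 456 to 457 in Fib, and they did not move together. *Krt19* had 16159 to 31981 counts in the cultures against 138 and 154 in Adult-Liver, whereas *Spp1* had 348 to 800 against 2978 and 3111, and *Sox9* had 31 to 279 against 4790 and 4304 in Fib.

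The 6 endothelial markers were split as well, and their sum was higher in the cultures than in Adult-Liver, also without iECs. They summed to 475 to 484 CPM in 2D-iHepSC and 408 to 429 in 2D-iHepSCiEC, to 1217 to 1353 in 3D-iHA and 870 to 946 in 3D-iHEA, and to 290 to 293 in Adult-Liver. With iECs, 0 of the 6 markers were higher and 3 were lower, in 2D and in 3D alike, beside 4.18% and 1.35% of all tested genes called. The iECs were human, so these counts on mouse genes cannot test the label of added endothelial cells. How many reads of the iECs were counted was not tested. By staining, the study found vWF-expressing iECs only in the cultures with iECs. Of the list, 4 of the 6 were higher and 1 was lower in 3D than in 2D, beside 65.9% of all tested genes. *Pecam1* had 2 to 22 counts and *Kdr* 0 to 25 in the cultures, whereas *Cdh5* had 9451 to 16261. *Vwf* had 363 to 1010 counts in 2D and 11946 to 25206 in 3D, with 22039 and 25206 in 3D-iHA, which held no iECs. Other lists were split between 3D and 2D, beside the same 65.9%. Of the 5 cholangiocyte markers 2 were higher in 3D and 2 lower, and of the 7 hepatocyte markers 3 were higher and 1 lower. Among the higher ones, *Epcam* had 6900 to 9732 counts in 3D against 271 to 491 in 2D, and *Ttr* had 2252 to 2924 against 31 to 89. The part of these markers in the 3D levels of *Sall4*, *Klf4* and *Zfp42* was not tested.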

How the data were processed

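RNA of 14 samples was sequenced, and per the labels and the study's methods the authors aligned the reads with HISAT2 and counted them per gene with HTSeq. The deposited table holds these raw counts. Totals and tests were computed from the counts as deposited with edgeR 4.0.16 in R 4.3.3. Genes were filtered with filterByExpr over the 7 conditions, library totals were scaled by TMM, and all 14 libraries entered a quasi-likelihood fit with 1 term per condition. The 3D against 2D comparison averaged conditions. DESeq2 1.42.0 was an alternative. The edgeR fit was tested on simulated data. Pooled counts were compared with exact binomial intervals at 95% confidence. Positions are from GENCODE M21 (GRCm38). The members, the gene lists and the rule for named genes (up to 4 genes of a list with the largest called changes, and the genes most correlated with a member) were chosen with earlier results of these data known. Genes named outside the rule were chosen after their values were seen. The counter's strand setting is not given in the sources used here. A gene of the pluripotency network list that is part of its counts is not reported here by itself.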

Additional observations from a re-analysis of the deposited data

How the results depend on the processing

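The calls of the members were recomputed with other filters, other scalings, DESeq2, the compared libraries only, and without each library in turn. Where the mean log2(count + 1) had to reach 3, only 2 members were tested, and 1 was called for 2D-iHepSC against Fib, 1 for Fetal-Liver against Adult-Liver and 2 for 2D-iHepSC against Fetal-Liver, where 83.9%, 83.7% and 85.3% of all tested genes were called. With no filter, 1 member, *Sall4*, was called for 3D-iHEA against 3D-iHA, where 3.19% of genes were called. Over all alternatives the number of genes called ranged from 230 to 2334 for 2D-iHepSCiEC against 2D-iHepSC (710 as reported), from 105 to 723 for 3D-iHEA against 3D-iHA (229) and from 80 to 629 for the difference of the 3D change (252). Leaving out a library leaves 1 in its condition, so only effect sizes are given for these fits. For 3D against 2D the log2 fold change ranged from 6.33 to 7.79 for *Sall4*, from 1.19 to 1.29 for *Klf4* and from -0.40 to -0.08 for *Pou5f1*. No result changed its direction. Raw library totals in place of TMM moved 13 levels by more than the spread between libraries, and the DESeq2 test lost *Nanog* for 2D-iHepSC against Fib. Adding the members under the filter was an alternative chosen after seeing the data. It gave 3 of 8 tested members for 3D against 2D, where 65.9% of genes were called. The gained member was *Zfp42*, whose counts had prompted the choice. The library numbers did not pair the samples, with correlations of deviations from -0.0515 to 0.0272 over 15 pairs. The library number was also used as a replicate block, without 3D-iHEA, where a column carries conflicting numbers. Of 6 tested members, 3 were then called for 2D-iHepSC against Fib and 0 for 2D-iHepSCiEC against 2D-iHepSC. For Fetal-Liver against Adult-Liver 3 were called, and for 2D-iHepSC against Fetal-Liver 5. These numbers were the same without the block, where 77.0%, 4.18%, 80.4% and 83.2% of all tested genes were called. Depth limits *Tdgf1*, *Zfp42* and *Lin28a* in the cultures, where no library exceeded 6 counts.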

Other observations

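Several genes near the members had patterns of their own. *Slc2a3*, a glucose transporter next to *Nanog*, had 54 to 221 counts in 2D and 2021 to 3470 in 3D. *Apobec1*, the RNA-editing enzyme of apolipoprotein B on the other side, had 117 and 89 counts in Fib and 1312 to 2100 in the cultures. *Gdf3* had 151 and 173 counts in Fetal-Liver and at most 2 in the other libraries.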
